A study of Mus musculus with 8 samples.

Results

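A set of 9 genes of the Ras-ERK pathway were followed in cisplatin-treated kidney tubular cells carrying a control shRNA or an smgGDS knockdown. They were the Ras isoform genes Nras and Hras and 7 genes known for ERK feedback or as readouts of ERK, namely Dusp4, Dusp6, Spry1, Spry2, Spry4, Spred1 and Etv4. They were taken by symbol from the deposited gene table, where all 9 were found among 21879 genes, and all 9 passed the expression filter that left 11576 genes for testing. The cells were TCMK-1, a mouse kidney epithelial line, carrying either a control shRNA (4 libraries) or an shRNA against smgGDS (4 libraries). Cisplatin, which forms platinum crosslinks in DNA, was given at 20 µM in both groups. All 8 libraries came from cisplatin-treated cells, so no value below measures an effect of the drug. Messenger RNA was enriched on oligo(dT) beads before sequencing. Nothing in the labels says whether replicates were independent cultures, or each shRNA line a single clone, and the p-values measure the spread between these libraries, which may be technical.

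Ras proteins are membrane-anchored switches that, when loaded with GTP, start the kinase cascade that runs through MEK to ERK. ERK activity in turn raises transcription of its own brakes: dual-specificity phosphatases such as DUSP6 and DUSP4 remove the activating phosphates from ERK, and Sprouty and SPRED proteins act upstream at the level of receptors and Ras. The mRNA of these genes is therefore widely used as a readout of pathway output, alongside the ETS factor gene Etv4. smgGDS, encoded by Rap1gds1, binds several small GTPases that carry a prenylated C-terminal tail and takes part in their nucleotide exchange and delivery to membranes.

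The tails in which the Ras isoforms differ are encoded by the last part of their coding sequences, shown here because that is where the lipid anchor is attached. Both coding sequences span 570 bases including the stop codon. The position-by-position identity between Hras and Nras was 79.2% over the first 495 bases and 48.0% over the last 75 bases. Those last 75 bases, from GENCODE M21 transcripts on GRCm38, lie in the last coding exon at chr7:141191348-141191422 on the minus strand for Hras and at chr3:103063375-103063449 on the plus strand for Nras. Capitals mark the 12 bases of the 4 codons before the stop codon, which encode the CAAX box, the site of prenylation.
Hras: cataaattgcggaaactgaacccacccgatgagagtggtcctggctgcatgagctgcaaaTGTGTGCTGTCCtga
Nras: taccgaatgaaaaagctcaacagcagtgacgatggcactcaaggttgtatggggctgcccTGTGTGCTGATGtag
The deposited counts are per gene, so transcript forms of Hras or Nras that differ in their exons were not separated.

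The libraries held 11560977 to 16059158 expected counts in all, and 3 counts corresponded to 0.181 to 0.257 CPM (counts scaled to library size with TMM factors), a limit that covers counting error only. The targeted gene Rap1gds1 was at 15.5 to 17.0 CPM in the controls and 2.36 to 2.80 CPM in the knockdown, 16.2% of control (95% interval 13.6% to 19.5%), so every library matched its label. Knockdown replicate 4 stood apart on the component carrying 29.2% of the variance, with a score of 20.9, where the remaining knockdown libraries scored 8.86 to 9.58 and the controls -16.5 to -8.86. The 8 tubular epithelial markers together were low, at 14.6 to 17.2 CPM in the controls and 13.7 to 16.4 CPM in the knockdown. The largest was Pax8, with means of 8.97 CPM in the controls and 9.33 CPM in the knockdown. Pax8, Epcam, Krt8 and Krt18 were tested and none was called, while the E-cadherin gene Cdh1 had a highest count of 5. The 6 fibroblast and pericyte markers together gave 309 to 334 CPM in the controls and 366 to 421 CPM in the knockdown. Most of this was Col1a1, with means of 281 CPM in the controls and 328 CPM in the knockdown. Of these markers 4 of the 4 tested rose, where 11.1% of all tested genes rose. Lum and Pdgfra, at highest counts of 5 and 9, were too low to test. Of 6 leukocyte markers Cd3e and Adgre1 were at 0, and the pan-leukocyte gene Ptprc had a highest count of 1. Their summed level was 77.0 to 85.7 CPM in the controls and 57.1 to 73.8 CPM in the knockdown, nearly all of it Cd14, which fell. The 5 endothelial markers gave 7.54 to 9.58 CPM in the controls and 11.9 to 13.7 CPM in the knockdown, with Flt1 the tested gene and risen, and Cdh5 and Pecam1 at highest counts of 3 and 5. The part of these marker shifts in the results was not tested.

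Of the 9 genes, Dusp4 fell in the knockdown, none rose, and 8 did not pass the test. edgeR's quasi-likelihood test, adjusted over all 11576 genes at a threshold of 0.05, called 20.2% of all genes, 11.1% upward and 9.15% downward. The 1 call in 9 is a share of 11.1%, below the background for either direction and near that for falls. With 9 genes this share says little about the set. An unadjusted p under 0.05 was reached by 3 of the 9 (Dusp4, Hras and Nras), and DESeq2 and limma voom also called none upward. The median absolute log2 fold change of the 9 genes was 0.10, against 0.12 over all tested genes, and their median was -0.03 against 0.00. Fold changes are given throughout as knockdown minus control.

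**Figure D1:**
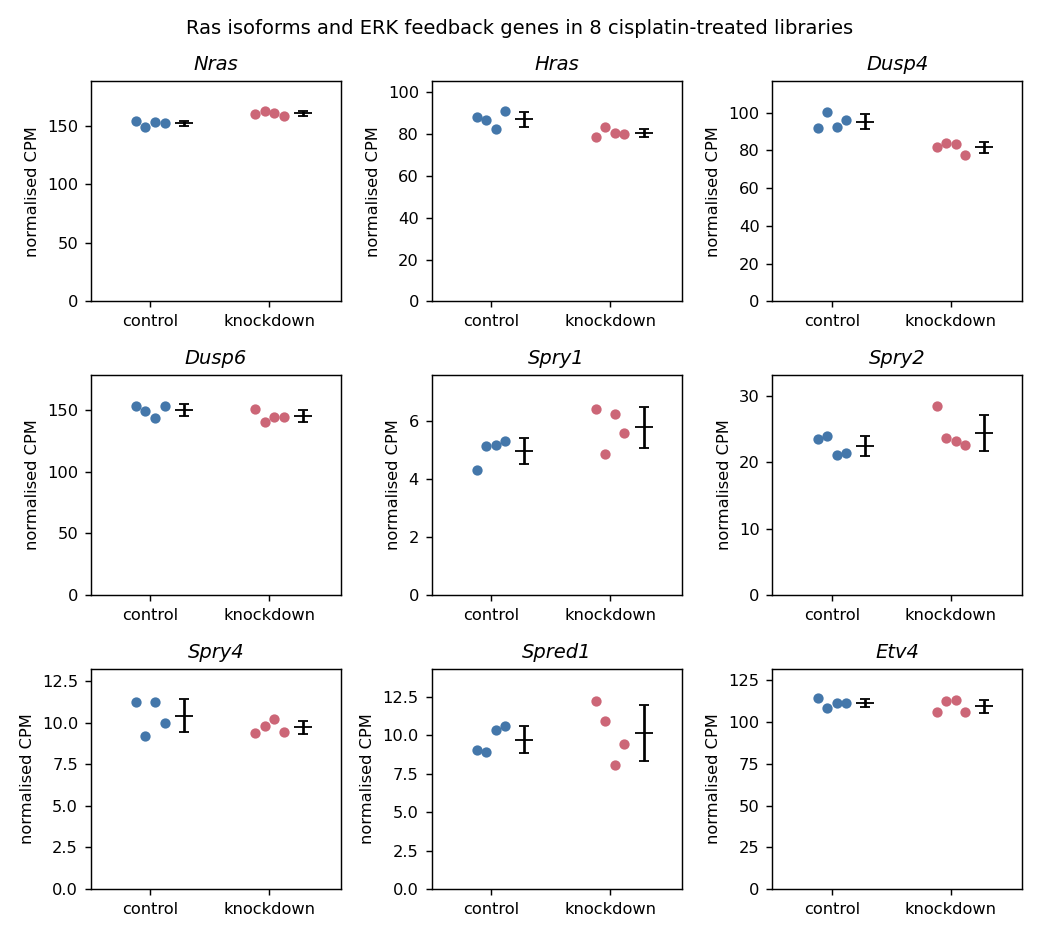
Normalised CPM (vertical axes, starting at 0) of the 9 genes in the 4 control (blue) and 4 knockdown (red) libraries. Each point is a library, and the black marks give the mean and SD. Dusp4 is the gene whose knockdown libraries (77.3 to 83.9 CPM) all lie below the controls (91.9 to 100.4 CPM), and Nras is the gene whose knockdown libraries (159 to 163 CPM) all lie above them (149 to 154 CPM).

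The Ras isoform genes shifted by small amounts in opposite directions, and neither passed the adjusted test. Nras (ncbi_18176, chromosome 3, 103058285 to 103067914, GRCm38.p6) had 154, 149, 153 and 152 CPM in control replicates 1 to 4 and 160.5, 163, 161 and 159 CPM in knockdown replicates 1 to 4. All 4 knockdown libraries lay above all 4 controls, a separation seen in either direction in 21.1% of all tested genes. The means were 152 ± 2.12 and 161 ± 1.84 CPM (SD, n = 4 each), a log2 fold change of 0.08 (SE 0.04, 95% interval 0.01 to 0.15, edgeR adjusted p = 0.12). Its estimate was 0.02 when counts were scaled by library total and on the authors' FPKM (a level per length and library size). Nras was the member with a count that was not whole, in knockdown replicate 4, so some of its reads may be shared with another gene.

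Hras (ncbi_15461, chromosome 7, 141189934 to 141194019) had 88.2, 86.7, 82.5 and 91.0 CPM in control replicates 1 to 4 and 78.7, 83.3, 80.5 and 79.9 CPM in knockdown replicates 1 to 4. The groups overlapped through control replicate 3, which lay below knockdown replicate 2. The means were 87.1 ± 3.55 and 80.6 ± 1.97 CPM (SD, n = 4 each), with a log2 fold change of -0.11 (SE 0.05, 95% interval -0.20 to -0.02, edgeR adjusted p = 0.0779). The threshold was passed without control replicate 3 (-0.14, edgeR adjusted p = 0.0487), under scaling by library total (-0.17, adjusted p = 0.00654) and on FPKM with limma (-0.17, adjusted p = 0.0179). On the edgeR fit as planned, Hras is therefore not called. Its direction was the same under all 18 alternatives run. Among these the threshold of 0.01 reuses the planned fit, so there the direction could not differ.

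The ratio of Hras to Nras within a library does not depend on how libraries are scaled. Hras counts per Nras count were 0.572, 0.581, 0.538 and 0.597 in the controls, by replicate number, against 0.490, 0.511, 0.501 and 0.504 in the knockdown. Every knockdown library had a lower ratio than every control. The log2 ratio was -0.81 ± 0.06 in the controls and -0.996 ± 0.024 in the knockdown (SD, n = 4 each), a difference of -0.19. This ratio and those of Dusp4 to Dusp6 and Spry2 to Spry4 were chosen after the single-gene values had been seen, so they are given as descriptions with no test and add no support to the single-gene results. The balance between the isoforms depended on the scale: Nras had more counts, whereas per length Hras was the more abundant, at 62.3 ± 3.74 FPKM against 34.7 ± 0.32 FPKM for Nras in the controls and 55.1 ± 1.36 against 35.3 ± 0.58 FPKM in the knockdown (authors' FPKM, SD, n = 4 each).

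Dusp4, which encodes a nuclear dual-specificity phosphatase acting on ERK and other MAP kinases, was the member that fell. Dusp4 (ncbi_319520, chromosome 8, 34807610 to 34819894) had 91.9, 100.4, 92.3 and 96.1 CPM in control replicates 1 to 4 and 81.8, 83.9, 83.2 and 77.3 CPM in knockdown replicates 1 to 4. All knockdown libraries were below all controls, as in 9.61% of all tested genes. The means were 95.1 ± 3.96 and 81.6 ± 2.95 CPM (SD, n = 4 each), so that the knockdown level was 85.7% of control (95% interval 80.5% to 91.4%). This corresponds to -0.22 on the log2 scale (SE 0.05, edgeR adjusted p = 0.000296). Leaving out single libraries gave -0.24 to -0.19 with adjusted p of 0.000453 to 0.00331, and without knockdown replicate 4 the value was -0.20.

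Dusp6, the cytoplasmic phosphatase specific for ERK, stayed within the spread of the libraries. Dusp6 (ncbi_67603, chromosome 10, 99263231 to 99267489) had 154, 150, 144 and 154 CPM in the controls and 151, 140, 145 and 144 CPM in the knockdown, in order of replicate. The ranges overlapped, and knockdown replicate 2 was the one knockdown library below the controls. The log2 fold change was -0.05 (SE 0.04, 95% interval -0.12 to 0.03, edgeR adjusted p = 0.405). Under scaling by library total it was -0.10 and passed (adjusted p = 0.0412). The RefSeq table lists Gm34921 as overlapping Dusp6. Gm34921 has no counts of its own in the deposited gene table, and without a stated strand setting its reads may be counted under Dusp6. The targeted gene Rap1gds1 has a listed overlap of the same kind, with Gm18381.

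The fall of Dusp4 can be set against Dusp6 in the same library, which restates the single-gene values independently of scaling. The ratio of Dusp4 to Dusp6 counts was 0.598, 0.671, 0.641 and 0.625 in the controls, by replicate number, against 0.541, 0.598, 0.575 and 0.535 in the knockdown. The groups were separated by a narrow margin, between control replicate 1 and knockdown replicate 2. The log2 ratio was -0.66 ± 0.07 in the controls and -0.83 ± 0.08 in the knockdown (SD, n = 4 each), a difference of -0.17.

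**Figure D2:**
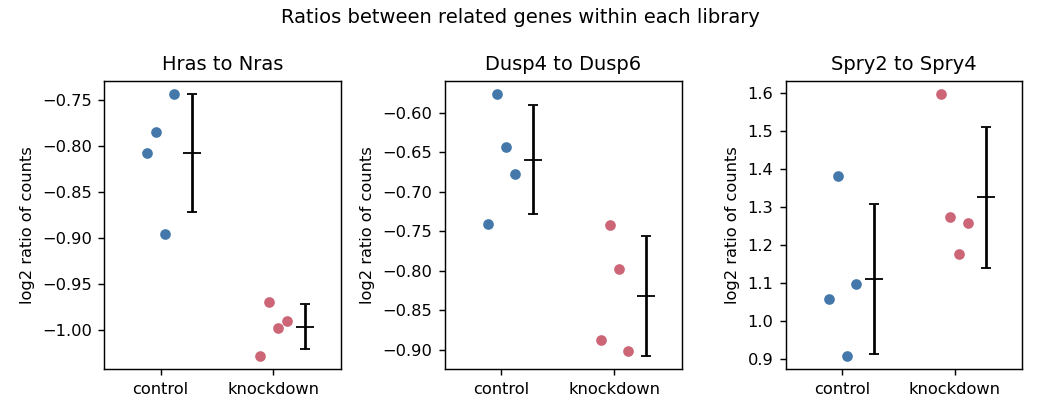
Log2 ratio of counts within each library (vertical axes, not starting at 0) for Hras to Nras, Dusp4 to Dusp6 and Spry2 to Spry4. Points are libraries, and black marks give the mean and SD. The knockdown libraries lie below the controls for the Ras pair (-0.996 against -0.81) and the phosphatase pair (-0.83 against -0.66), and the groups overlap for the Sprouty pair.

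The Sprouty genes, whose products restrain receptor tyrosine kinase signalling, did not pass the test. Spry2 (ncbi_24064, chromosome 14, 105891947 to 105896819) was the most abundant of them, with 23.4, 24.01, 21.1 and 21.4 CPM in control replicates 1 to 4 and 28.5, 23.7, 23.2 and 22.5 CPM in knockdown replicates 1 to 4. Its highest value was knockdown replicate 1, and the other knockdown libraries lay within the control range. The log2 fold change was 0.12 (SE 0.08, 95% interval -0.04 to 0.28, edgeR adjusted p = 0.319), and without knockdown replicate 1 it was 0.04.

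Spry1 (ncbi_24063, chromosome 3, 37639947 to 37644599) was low, with 4.31 to 5.30 CPM in the controls and 4.87 to 6.42 CPM in the knockdown. From 62 to 90 counts per library, its log2 fold change of 0.22 (SE 0.15) had a 95% interval of -0.08 to 0.52 (edgeR adjusted p = 0.317). This interval holds no change as well as a rise as large as the fall of Dusp4. The part of depth in its width was not tested. Spry4 (ncbi_24066, chromosome 18, 38586247 to 38601347) had 9.23 to 11.3 CPM in the controls and 9.42 to 10.3 CPM in the knockdown, with a log2 fold change of -0.10 (SE 0.11, 95% interval -0.33 to 0.12, edgeR adjusted p = 0.578). The estimate for Spry4 was -0.060 without control replicate 1, -0.065 without control replicate 3 and -0.16 without control replicate 2. The log2 ratio of Spry2 to Spry4 counts was 1.11 ± 0.20 in the controls and 1.33 ± 0.19 in the knockdown (SD, n = 4 each), with overlapping groups.

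Spred1, which encodes a membrane protein that brings the Ras inactivator neurofibromin to Ras, was the most variable in direction. Spred1 (ncbi_114715, chromosome 2, 117121071 to 117182279) had 9.04, 8.93, 10.3 and 10.6 CPM in control replicates 1 to 4 and 12.3, 10.9, 8.09 and 9.43 CPM in knockdown replicates 1 to 4. The knockdown libraries held both the highest and the lowest of the 8 values. The log2 fold change was 0.08 (SE 0.12, 95% interval -0.17 to 0.32, edgeR adjusted p = 0.713), and it turned to -0.03 without knockdown replicate 1.

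Etv4, an ETS transcription factor gene widely used as an ERK readout, had the estimate nearest to 0 of the 9 genes. Etv4 (ncbi_18612, chromosome 11, 101769747 to 101785310) had 114, 109, 111 and 112 CPM in control replicates 1 to 4 and 106, 113, 113 and 106 CPM in knockdown replicates 1 to 4. A lower pair of knockdown libraries (replicates 1 and 4) lay below the controls, and the other pair lay inside the control range. The log2 fold change was -0.03 (SE 0.04, 95% interval -0.11 to 0.06, edgeR adjusted p = 0.696), an interval that leaves out a change as large as the estimate for Dusp4. With single libraries left out the estimate for Etv4 was -0.043 to -0.013.

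**Figure D3:**
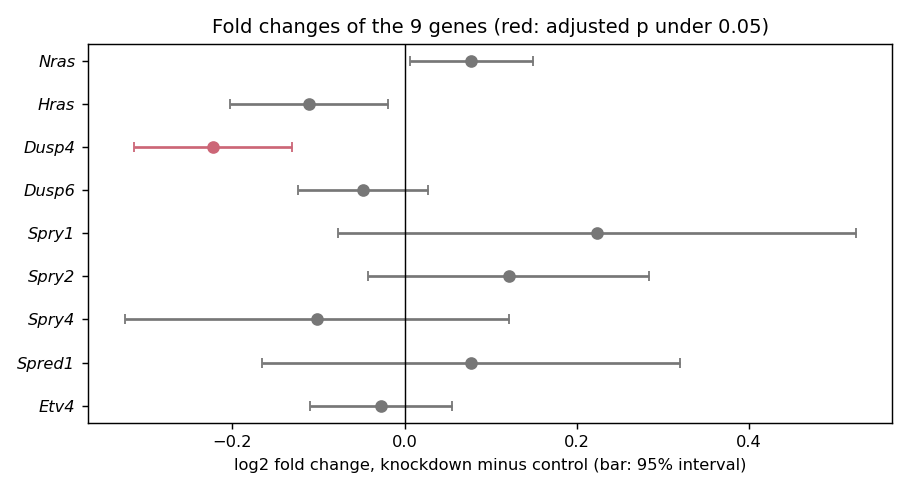
Log2 fold change (horizontal axis, knockdown minus control) of the 9 genes with 95% intervals from the edgeR fit. Dusp4 (-0.22, red) passed the adjusted test, and the grey genes did not. The intervals of Nras (0.01 to 0.15) and Hras (-0.20 to -0.02) leave out 0 before adjustment, and Spry1 has the widest interval (-0.08 to 0.52).

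Per length, Hras stood highest among the 9 genes in the controls, followed by Dusp6, Etv4, Dusp4, Nras, Spry2, Spry4, Spry1 and Spred1. The authors' FPKM values ran from 62.3 ± 3.74 for Hras and 54.7 ± 1.76 for Dusp6 to 2.07 ± 0.18 for Spry1 and 1.74 ± 0.13 for Spred1 (control means, SD, n = 4). Control ranges of neighbours in this order were separate except for Spry4 with Spry1 and Spry1 with Spred1. In the knockdown Nras, at 34.6 to 36.0 FPKM, stood above Dusp4, at 31.0 to 34.1 FPKM, whereas in the controls Dusp4, at 38.5 to 42.7 FPKM, stood above Nras, at 34.4 to 35.2 FPKM.

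Across the 8 libraries the log2 CPM of Dusp4 was most like that of Sgol2a, a protector of centromeric cohesion (Pearson's r = 0.991), Ift46, an intraflagellar transport subunit (r = 0.991), and Gja1, the gap junction protein connexin 43 (r = 0.989). All 3 fell, by 0.36, 0.23 and 0.32 on the log2 scale (SE 0.07, 0.05 and 0.04). The genes most like Hras included Bnip1 (r = 0.972) and Zbtb1 (r = 0.952), neither of which passed the test (log2 fold changes -0.29 and -0.12). These are among the highest of 8513 correlations per gene over libraries that share the difference between groups, and are given as a description.

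The other genes of the pathway were taken from 7 lists covering Ras relatives, exchange factors, inactivators, the kinase cascade, other ERK targets, further dual-specificity phosphatases, and Ras palmitoylation. These lists were chosen with earlier results of these data known, so the shares called in them are descriptions. Of 72 genes 61 were tested, of which 10 rose, 6 fell and 45 did not pass, or 26.2% called against the 20.2% of all genes. Their median log2 fold change was -0.03, against 0.00 over all genes. Without knockdown replicate 4, 8 rose and 4 fell. The split between directions depended on scaling, for these genes and for all genes. Over all genes 1285 rose and 1059 fell with TMM factors, 766 and 1951 with scaling by library total, and 592 and 1481 on FPKM. For the pathway genes the numbers were 4 and 10 with scaling by library total and 3 and 7 on FPKM.

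Transcripts of the kinase cascade itself leaned upward. Of 14 tested adaptors, kinases and scaffolds 5 rose and 1 fell, and the list's median was 0.05. The share called, 42.9% against 20.2% of all genes, is a description, as the list was chosen with earlier results known. The phosphatase SHP2 gene Ptpn11, needed for Ras activation by receptors, went from 136 ± 3.62 to 157 ± 5.41 CPM (SD, n = 4 each), a difference of 0.20 on the log2 scale (SE 0.04, edgeR adjusted p = 8.51e-05). The ERK1 gene Mapk3 rose by 0.16 (SE 0.04, edgeR adjusted p = 0.00294) and the MEK2 gene Map2k2 rose by 0.18 (SE 0.05, edgeR adjusted p = 0.0102). Shc1, an adaptor that links receptors to Grb2, fell by 0.16 (SE 0.04, edgeR adjusted p = 0.006). Map2k2 was named after its values were seen.

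Ptpn11 and Shc1 kept their calls under every alternative run. Mapk3 and Map2k2 lost theirs under scaling by library total and on FPKM, and Map2k2 also without control replicate 2.

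Other ERK feedback and target genes moved in both directions, with 4 of 13 tested lower and 2 higher and a list median of -0.04. The share called, 46.2% against 20.2% of all genes, is a description, as the list was chosen with earlier results known. The 4 genes below also lie far above the median of 19.0 CPM of all tested genes, and the background was not matched for level. Phlda1, an ERK-induced gene, went from 290 ± 8.64 to 239 ± 19.8 CPM (SD, n = 4 each), a difference of -0.28 on the log2 scale (SE 0.04, edgeR adjusted p = 4.87e-05). The ephrin receptor gene Epha2, also an ERK target, went from 269 ± 11.03 to 231 ± 7.80 CPM (-0.22, SE 0.03, edgeR adjusted p = 3.35e-06). In each of these genes all knockdown libraries were below all controls, as they were for Dusp4. The immediate early gene Ier3 went from 203 ± 6.58 to 237 ± 9.41 CPM (0.23, SE 0.03, edgeR adjusted p = 4.36e-06) and Myc from 261 ± 9.43 to 301 ± 11.1 CPM (0.21, SE 0.03, edgeR adjusted p = 8.98e-06), with all knockdown libraries above all controls. These 4 calls held under every alternative run.

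The remaining falls in that list, of Ccnd1 and Etv5, were less stable. The cyclin D1 gene Ccnd1 fell by 0.13 on the log2 scale (SE 0.05, edgeR adjusted p = 0.0465) and has counts that are not whole. The ETS factor gene Etv5, a relative of Etv4, fell by 0.45 (SE 0.16, edgeR adjusted p = 0.0388) from a low level of 6.75 ± 1.28 CPM to 4.96 ± 1.12 CPM, with overlapping groups. Etv5 was named after its values were seen. At a threshold of 0.01 neither Ccnd1 nor Etv5 was called. Both lost their calls with DESeq2 and when control replicate 2 or 3 or knockdown replicate 1 or 3 was left out, Ccnd1 also without control replicate 1, without knockdown replicate 4 or with no filter on low counts, and Etv5 also on FPKM. The immediate early genes Egr1, Fos and Fosl1, named after their values were seen, did not pass (log2 fold changes 0.01, 0.06 and -0.04).

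**Figure D4:**
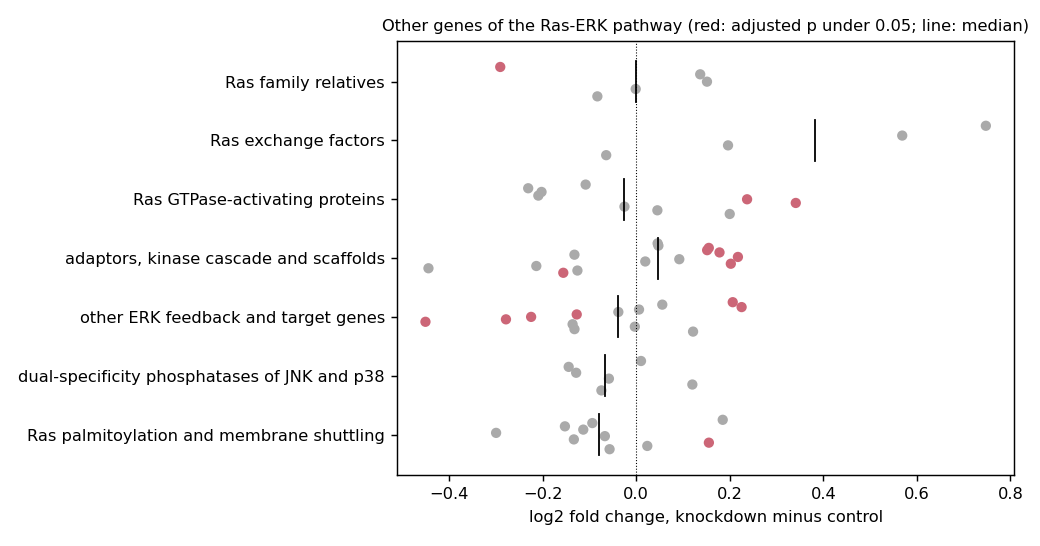
Log2 fold change (horizontal axis, knockdown minus control) of the 61 tested genes in 7 lists of the Ras-ERK pathway. Points are genes, red where the adjusted p is under 0.05, and the black line is the list's median. The list labelled for JNK and p38 also holds Dusp9, whose product prefers ERK. The kinase cascade list holds 5 rises and 1 fall, and the list of other ERK targets 2 rises and 4 falls.

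The regulators and relatives of Ras were called at 22.2% (GTPase-activating proteins), 20.0% (relatives) and 0% (exchange factors), set against 20.2% of all genes. Of 9 tested GTPase-activating proteins, which switch Ras or its relatives off, Rasa3 rose by 0.34 (SE 0.10, edgeR adjusted p = 0.0122) and Rasa4 rose by 0.24 (SE 0.08, edgeR adjusted p = 0.037). Of 5 Ras relatives Rit1 fell by 0.29 on the log2 scale (SE 0.11, edgeR adjusted p = 0.0442). The call of Rit1 was lost in 7 of the 8 fits that left out a library, all but that without control replicate 3, and with DESeq2, limma voom or no filter on low counts. At a threshold of 0.01 Rit1, Rasa3 and Rasa4 were not called. Rasa3 also lost its call on FPKM. The call of Rasa4 was lost under scaling by library total, on FPKM, with DESeq2 and when control replicate 1 or 4 or knockdown replicate 1, 3 or 4 was left out.

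None of 4 tested exchange factors, which switch Ras on, passed by edgeR, with 1 at an unadjusted p under 0.05. This was Rasgrp4, whose 10 to 13 counts in the controls and 13 to 21 in the knockdown gave separated groups in CPM (0.75 on the log2 scale, SE 0.33, edgeR adjusted p = 0.106) and include values that are not whole. The 10 palmitoylation and shuttling genes, which move Hras and Nras between membranes, were called at 10.0%, set against 20.2% of all genes. Of these Lypla1, a depalmitoylating thioesterase, rose by 0.16 (SE 0.05, edgeR adjusted p = 0.0319). Its relative Lypla2 had separated groups in the lower direction and did not pass (-0.13, SE 0.06, edgeR adjusted p = 0.118), although it did under scaling by library total and on FPKM. Lypla1 lost its call at a threshold of 0.01, under scaling by library total, on FPKM and with DESeq2. Its call was also lost without control replicate 2, 3 or 4 or knockdown replicate 1 or 2. A further list of 6 dual-specificity phosphatases had been drawn up for JNK and p38, although some of its members also act on ERK. Of these edgeR called 0, set against 20.2% of all genes, with 1 at an unadjusted p under 0.05. This was Dusp9, named after its values were seen, whose product is known to prefer ERK (-0.13, SE 0.05, edgeR adjusted p = 0.0892).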

How the data were processed

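Poly(A)-selected RNA of 8 TCMK-1 libraries was analysed, 4 per group. The deposited table pairs expected counts (estimates that can be fractional) with the authors' FPKM for each gene and library. Per the submitters' processing notes the tools were HISAT2 2.4, StringTie 1.3.1, fastp 0.18.0, Bowtie2 2.2.8, edgeR, DESeq2 and RSEM, listed without role or order, and the build GRCm38.p6. Sources used here give neither the gene annotation nor whether counting used strand. Rounded expected counts entered edgeR 4.0.16, run under R 4.3.3 (TMM factors, default expression filter, robust quasi-likelihood F-test on group, two-sided, Benjamini-Hochberg adjustment over 11576 genes). Standard errors were derived from each gene's F statistic. Alternatives used DESeq2 1.42.0, limma 3.58.1 (voom, and log2 of FPKM plus 0.5 or 0.1), other scalings, filters, a replicate term, a threshold of 0.01 and each library left out. Coordinates are from a RefSeq table of GRCm38.p6, matched on NCBI gene identifiers.

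The members and lists were chosen with earlier results of these data known. Named genes are the 9 members, Rap1gds1, up to 3 called genes per list with the smallest adjusted p, listed genes with separated groups, and the 3 best-correlated genes (mean CPM of at least 5, log2 CPM with a prior count of 2) of the 2 members with the smallest adjusted p. Of 72 listed genes Spry3 had no match by symbol. Replicates of a group differed by more than sampling noise (chi-square per degree of freedom 1.94 to 3.98). On simulated data for this comparison, run on 11479 genes, 28 of 50 genes simulated with a log2 change of 0.3 were called, 40 of 50 with a log2 change of 0.6, and 10 of 11281 unchanged genes. The simulation gave every gene the same spread between replicates (4.29%) and changed few genes, so these rates need not hold for the real libraries. Its smallest change, 0.3, exceeds the estimate of every member in size. Some genes that this rule names are not reported here.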

Additional observations from a re-analysis of the deposited data

Results flagged for a closer look

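In 56 groups of 4 libraries, made up of the genes named from the lists and the members, 3 held a library far from the other 3, and chance flags about 1 in 20. Rit1 was at 10.8 CPM in knockdown replicate 1, against 10.1 to 10.1 CPM in the other knockdown libraries. Map2k2 was at 65.0 CPM in knockdown replicate 2, against 72.1 to 73.6 CPM. Epha2 was at 219 CPM in knockdown replicate 4, against 234 to 235 CPM. None of the 9 members had such a library.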

How the results depend on the processing

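Dusp4 was called under all 18 alternatives, and no member was called upward under any. Members that fell numbered 3 under scaling by library total, 2 on FPKM with either pseudocount, and 1 to 2 with single libraries left out, the second being Hras without control replicate 3. Spred1 changed sign, to -0.039 and -0.049 on FPKM with pseudocounts of 0.5 and 0.1 and to -0.030 without knockdown replicate 1, with single libraries left out giving -0.030 to 0.17. Other pathway genes that rose numbered 4 under scaling by library total, 3 on FPKM with either pseudocount and 4 at a threshold of 0.01; those that fell numbered 10 under scaling by library total, 3 with DESeq2, 3 at a threshold of 0.01 and 3 to 5 with single libraries left out, with 3 without control replicate 2 or knockdown replicate 3. Over all genes 766 rose and 1951 fell under scaling by library total, 592 and 588 rose on FPKM with pseudocounts of 0.5 and 0.1, and 825 rose and 580 fell at a threshold of 0.01. The replicate block gave 0 rises and 1 fall among members, 10 and 6 among other pathway genes and 1425 and 1235 over all genes; deviations of same-numbered libraries correlated at -0.04 to 0.08, all under the 0.1 asked of every pair, and the libraries were not treated as paired. Control replicates 1, 2 and 4 correlated best with the knockdown library of their own number and replicate 3 with knockdown replicate 4, a hint from the data and not the design. The ratio differences were -0.22 to -0.17 (Hras to Nras), -0.20 to -0.15 (Dusp4 to Dusp6) and 0.12 to 0.30 (Spry2 to Spry4) with single libraries left out, and -0.20, -0.17 and 0.23 on FPKM. The cause of these changes was not tested. Spry1, Spry4 and Spred1 had the fewest counts of the members (591, 1117 and 1097 over the 8 libraries) and the widest standard errors (0.15, 0.11 and 0.12); the part of depth in them was not tested. Leaving out single libraries moved Dusp6 to between -0.069 and -0.032.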
